A study of Mus musculus with 5 samples.

Results

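The replication-dependent histone genes were taken as every gene of the deposited tables whose symbol starts with Hist1h, Hist2h, Hist3h or Hist4, without symbols ending in -ps, and these were 69 gene identifiers of 28692. They carry 68 symbols, since *Hist2h2bb* stands for 2 overlapping identifiers. By the protein they encode, 6 were linker histone H1 genes, 19 were H2A, 19 H2B, 12 H3 and 13 H4 genes. In the GENCODE vM21 annotation of mm10, 67 were found by identifier, with 53 on chromosome 13, 11 on chromosome 3, 2 on chromosome 11 and 1 on chromosome 6. The choice of genes rests on their names and not on their values, so *Hist1h2al*, which the annotation calls a processed pseudogene, and the *Hist2h2bb* identifier that it calls a lincRNA were kept.

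The levels come from droplet-based single-cell RNA sequencing (10x Genomics, 3' end method) of bone marrow from C57BL/6J mice, 8 weeks old by the study's methods. All 5 mice received 1000 BCR-ABL1+ pre-B acute lymphoblastic leukemia cells by tail vein injection and none was irradiated, so no group is untreated. The day 0 mouse was taken directly after the transplant and the others at days 3, 6, 9 and 12, with 1 mouse and 1 library per day. Marrow of femurs and tibias was digested with collagenase and DNase, cleared of red cells and frozen before sequencing. Host and transplanted cells were not told apart here, and neither were differences between days and differences between mice.

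The 5 libraries held 33425695 to 43554233 unique molecular identifiers (UMIs), and 5474 to 7604 barcodes per library with at least 500 UMIs were kept as cells, 32135 in all. Of their 31551 distinct barcode sequences 574 occurred in more than 1 library, with 44 to 73 shared by any pair. The genes of interest took 144889 UMIs in these cells, or 8.69 to 9.94 per 10000 UMIs of a library. Barcodes with at most 100 UMIs, which hold free RNA, carried 5.13 to 8.47 per 10000, so part of the UMIs in any cell may come from free RNA. At day 12 the limit for a high mitochondrial share, 3 median absolute deviations above the median, was 2.50% of UMIs, against 7.07 to 9.12% at the other days, and 1194 cells lay above it. They were kept, and leaving them out is one of the alternatives. Levels below are UMIs per 10000 UMIs of the same cells, and their intervals are exact Poisson 95% intervals that cover counting error only.

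Replication-dependent histone genes supply the core histones H2A, H2B, H3 and H4, which form the nucleosome, and the linker histone H1, which binds the DNA between nucleosomes. They are transcribed mainly in S phase, and their mRNA is known for ending in a short stem-loop, bound by the protein *Slbp*, in place of a poly(A) tail. Single-cell methods that prime on poly(A) capture such mRNA poorly, and the members also have polyadenylated forms in some cells, so the values measure captured molecules and not the whole histone mRNA pool.

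The stem-loop is shown because it is the 3' end that sets these mRNAs apart from those the method captures well. A 16-base stem-loop was found after the stop codon of 42 of the 69 members, of which 65 had a coding transcript, and it took 6 forms. Many members without one, among them *Hist1h1b*, *Hist1h2ak* and *Hist1h2bn*, have annotated transcripts that end at the stop codon. In these no loop could be found, and the genes may still have one. The capitals mark the loop between the arms of the stem, each form is written 5′ to 3′ on the strand of the gene, and a member carrying it is named.
*Hist1h2ap*: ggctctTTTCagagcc
*Hist1h4d*: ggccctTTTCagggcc
*Hist1h3e*: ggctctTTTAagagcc
*Hist1h4i*: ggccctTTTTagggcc
*Hist1h4b*: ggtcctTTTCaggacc
*Hist2h2ac*: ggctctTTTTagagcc
The first form was carried by 24 members, among them *Hist1h2ae*, *Hist1h1c*, *Hist1h1d*, *Hist1h1e* and *Hist3h2a*. The second was found in 7 members, all of them H4 genes, the next in 6 members, and the others in 2, 2 and 1. In *Hist1h2ap* the loop lay 38 bases after the stop codon and the annotated transcript ended 3 bases after it. The annotation ran on for 151 bases past it in *Hist1h2ae*, for 840 in *Hist1h1c*, for 330 in *Hist1h4i* and for 1643 in *Hist3h2a*. Of the members with a coding transcript, 21 ended within 100 bases of the loop. A further 14, called long 3' end genes below, had an end more than 100 bases past it or, with no loop found, a long untranslated 3' part. They also had a poly(A) signal, AATAAA or ATTAAA, in the last 60 bases. Members with a long end and no such signal were not counted among the 14.

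Few members carried most of the captured UMIs. *Hist1h2ap*, an H2A gene at chr13:21833026-21833507 on the minus strand of mm10, held 53491 UMIs or 36.9% of the total, in 5447 cells. Next were *Hist1h2ae* at chr13:23570517-23571220 with 14187 UMIs in 3631 cells, *Hist1h1c* at chr13:23738808-23740367 with 11131 in 6599 cells and *Hist1h2bc* at chr13:23684199-23692908 with 8145 in 5266 cells. The first 3 genes held 54.4% and the first 20 held 86.4%, while 5 members had fewer than 50 UMIs and 4 of these fewer than 10. By family, H2A genes gave 57.8% of the UMIs, H1 15.7%, H2B 11.9%, H4 10.2% and H3 4.40%. One UMI counts 1 molecule whatever its length, but capture differs between 3' ends, and no order of true abundance follows from these numbers.

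Near-identical copies make several of these values uncertain. The last 300 bases of *Hist1h2ap* held no stretch of 50 bases that is its own among annotated transcripts, and 93.1% of its stretches were shared with *Hist1h2ao* at chr13:21810465-21810944. Of the members, 36 had under 50% of such stretches to themselves, so reads may have been moved among them or dropped as ambiguous by the counting. Exons of the same strand overlapped another gene for 8 members, among them *Hist3h2a* at chr11:58954685-58956830, which overlaps *Trim17*, and *Hist1h1e* at chr13:23620629-23622558, which overlaps *Hist1h2be*.

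Cells were sorted by a measure that holds none of the members. Every cell with at least 1000 UMIs was thinned to 1000, and its UMIs of 86 proliferation genes were summed, 40 of S phase and 46 of the G2 and M phases. Cells with at most 1 such UMI are called low and stand for resting cells, and cells with at least 5 are called cycling. Clusters were made without the members and named from marker genes, and the large lineages were B-lineage precursors, granulocyte-monocyte progenitor-like cells, the monocyte lineage and the neutrophil lineage. Clusters of the neutrophil lineage held 8 to 13 of 13 neutrophil markers and 16967 cells, those of the monocyte lineage 9 to 11 of 12 monocyte markers and 3875 cells, and those of the B-lineage precursors 8 to 14 of 14 pro-B and pre-B markers, with 1403 cells left after 4 subclusters led by genes of other types were set aside.

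The summed level of all members was higher in cycling than in low cells in every class and in every library with at least 10 cells of both. In B-lineage precursors it was 6.50, 7.02, 5.29, 4.43 and 3.42 per 10000 UMIs in low cells of days 0, 3, 6, 9 and 12, and 51.3, 21.5, 56.2, 45.1 and 37.0 in cycling cells. The value of low cells at day 12 rests on 12 UMIs of 17 cells. The states did not overlap, and day 3 was the lowest of the cycling values.

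The low day 3 value went with a group of cells found in that library alone. It held 122 B-lineage precursors, all of day 3, of which 90 were cycling, with a median of 20454.5 UMIs per cell and *Rnase12*, *Mt2* and *Myl10* among its leading genes. Over all days the level of cycling B-lineage precursors was 36.3 (527 cells), and 47.3 without this group. The level of low cells was 5.69 (95% interval 5.25 to 6.16, 460 cells), and 5.37 without it.

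Within the monocyte lineage the level was 2.88, 2.37, 2.47, 2.55 and 2.73 in low cells and 23.8, 14.6, 19.3, 19.98 and 25.9 in cycling cells from day 0 to day 12. The neutrophil lineage had 3.28, 2.79, 2.84, 2.77 and 2.38 in low cells and 19.3, 15.1, 14.6, 18.98 and 16.3 in cycling cells. The smallest difference was that of granulocyte-monocyte progenitor-like cells, with 6.16, 4.996, 3.50, 3.07 and 7.48 in low cells against 14.4, 15.8, 13.3, 17.3 and 17.0. Within each lineage the lowest cycling library thus lay above the highest low library. Free RNA held 8.47, 5.13, 5.63, 6.24 and 6.49 per 10000 in the same libraries, so the low cells of the monocyte and neutrophil lineages lay below it in every library and their summed level is not separated from background. Low B-lineage precursors lay below free RNA in 4 libraries and above it at day 3, and low progenitor-like cells lay below it in 4 and above it at day 12.

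**Figure D1:**
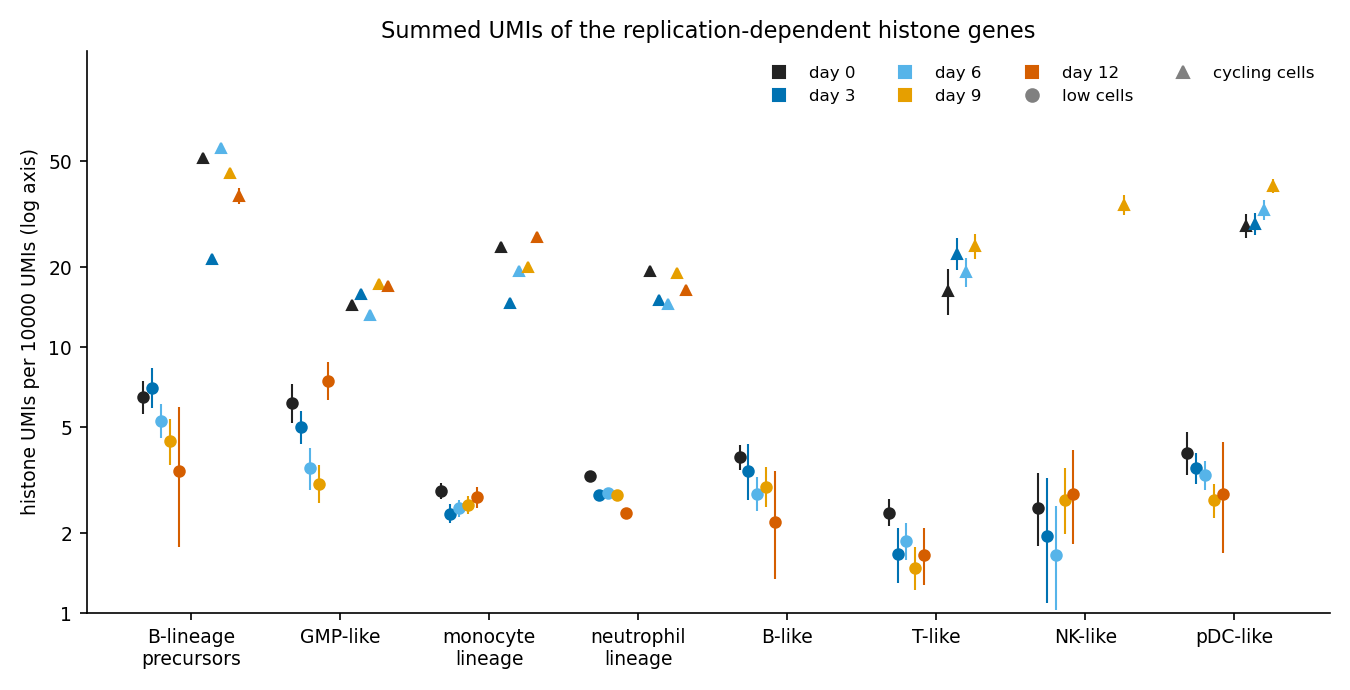
Summed level of the 69 replication-dependent histone genes per library, in UMIs per 10000 on a log axis, for low cells (circles) and cycling cells (triangles) of 8 classes, with exact Poisson 95% intervals as bars and points for at least 10 cells. Triangles lie above the circles of their class wherever both are drawn, and cycling B-lineage precursors range from 21.5 at day 3 to 56.2 at day 6.

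The log2 ratio of cycling to low cells was 2.98, 1.61, 3.41, 3.35 and 3.43 from day 0 to day 12 in B-lineage precursors and 3.05, 2.63, 2.96, 2.97 and 3.25 in the monocyte lineage. It was 2.56, 2.43, 2.36, 2.78 and 2.78 in the neutrophil lineage and 1.22, 1.66, 1.92, 2.49 and 1.18 in granulocyte-monocyte progenitor-like cells. Cycling cells were also the deeper ones, with a median of 7371 against 1981.5 UMIs in B-lineage precursors, 10871 against 5853.5 in the monocyte lineage and 10525 against 3197.5 in the neutrophil lineage.

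The lymphoid and dendritic classes held fewer cycling cells and showed the same order. Over all days, T-like cells had 1.90 per 10000 in 1222 low cells and 21.2 in 69 cycling cells, NK-like cells 2.36 in 219 and 26.0 in 40, and B-like cells 3.27 in 1121 and 15.5 in 20. The plasmacytoid dendritic-like cells had 3.24 in 519 low and 35.3 in 91 cycling cells, with 28.5, 29.1, 32.8 and 40.3 in the cycling cells of days 0, 3, 6 and 9, the libraries with at least 10 of them.

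At equal depth the level was higher in cells with more proliferation UMIs. In thinned B-lineage precursors with 0, 1, 2, 3 to 4, 5 to 9 and at least 10 proliferation UMIs, the mean was 0.622, 0.622, 0.542, 0.847, 2.03 and 5.63 histone UMIs per 1000. For the monocyte lineage it was 0.227, 0.269, 0.304, 0.519, 1.69 and 2.51, and in the neutrophil lineage 0.344, 0.390, 0.486, 0.833, 1.72 and 1.96. Progenitor-like cells went from 0.417 to 2.28 over the same range. The mean was thus about level up to 2 proliferation UMIs in B-lineage precursors, where the means for 0 and 2 were 0.622 and 0.542, and higher in each bin from 3 on.

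**Figure D2:**
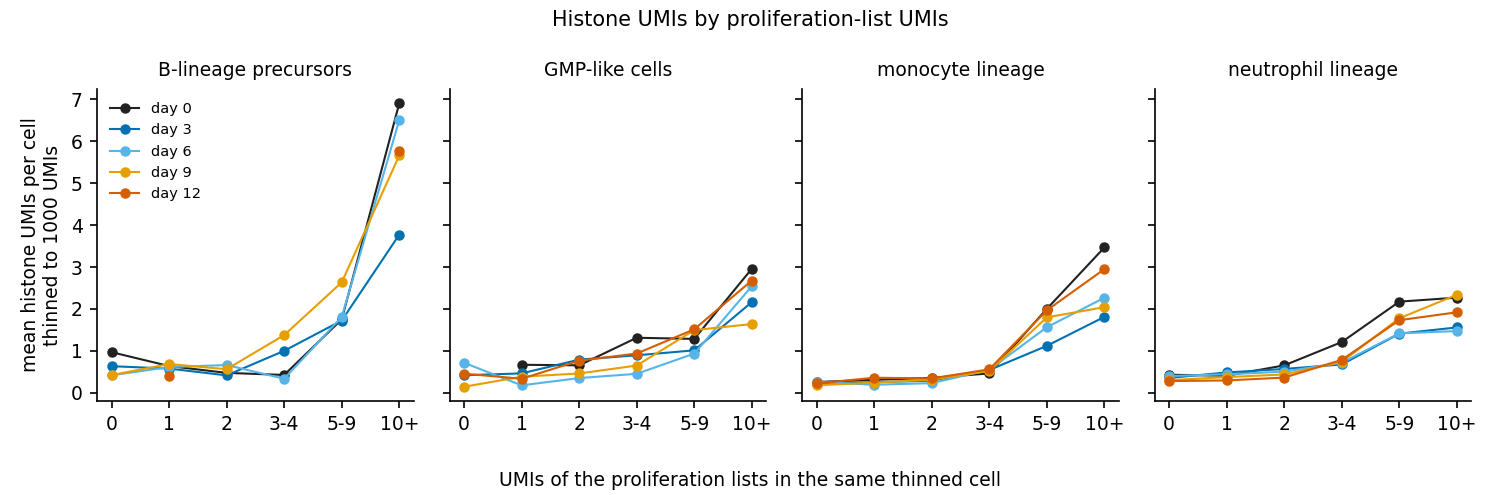
Mean UMIs of the 69 genes per cell thinned to 1000 UMIs, against the number of proliferation-list UMIs of the cell in 6 bins, for 4 lineages with a line per day and points for at least 10 cells. All 4 lineages have their highest mean in the last bin, which pooled over days is 5.63 in B-lineage precursors and 1.96 in the neutrophil lineage.

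A UMI of any member was found in 18752 of 32135 cells (58.4%). Among thinned cells, the share with such a UMI was 38.3% of low and 79.3% of cycling B-lineage precursors, 20.8% and 65.1% in the monocyte lineage and 25.3% and 68.5% in the neutrophil lineage. It was 30.2% and 59.3% of granulocyte-monocyte progenitor-like cells and 16.9% and 52.2% of T-like cells. No class here should lack these genes altogether, so the 16.9% of low T-like cells is the lowest share available as a guide to background.

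The make-up of the histone UMIs differed between the states. In low cells of all classes *Hist1h1c* held 26.1% of the member UMIs, *Hist1h2bc* 20.7%, *Hist1h4i* 8.84%, *Hist1h2ap* 8.11% and *Hist3h2a* 7.01%. In cycling cells *Hist1h2ap* held 44.3% and *Hist1h2ae* 11.9%, against 3.84% for *Hist1h1c* and 2.13% for *Hist1h2bc*. By family, H2A genes took 39.5% of the UMIs of low and 67.4% of cycling B-lineage precursors, and 39.5% and 71.2% in the monocyte lineage. In low cells of the neutrophil lineage H1 and H2B genes took 34.1% and 27.4%.

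The members were also split by their annotated 3' ends. The 14 long 3' end genes had 1.41 UMIs per 10000 in low and 4.54 in cycling cells, and the other 55 had 1.43 and 15.4. The long 3' end genes thus held 49.6% of the member UMIs of low cells and 22.8% of those of cycling cells. The other 55 were not all short, since *Hist1h2bc*, *Hist1h1e* and *Hist1h1d* had untranslated 3' parts of 742, 1209 and 4931 bases without the signal. Others of the 55, such as *Hist1h1b*, are annotated only to the stop codon. *Hist1h2bc* alone held 20.7% of the member UMIs of low cells, so this split is not one of long against short ends. Annotated ends were not compared with the ends used in these cells.

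The contrast of cycling with low cells was tested with edgeR's quasi-likelihood test on UMIs summed per library and state, with the library as a block, so that the 5 mice were the replicates. Calls were made at a Benjamini-Hochberg adjusted p below 0.05 over all genes tested. A member high in cycling cells passes the filter on low counts through those cells alone, so the counts describe the members that passed and are not evidence about the others.

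In B-lineage precursors 11 of the 69 members passed the filter, 8 were higher in cycling cells, where 26.5% of all genes tested were, and 1 was lower, against 28.3%. The median log2 fold change of the 11 members was 2.005, and −0.04 over all genes. Without the day 3 library 17 members passed the filter and 15 were higher. In the monocyte lineage 30 members were tested, 28 were higher (25.9% of all genes) and 1 lower (27.9%), with a median of 3.38 against −0.02. Within the neutrophil lineage 47 were tested, 43 were higher (37.0%) and 1 lower (37.2%), with a median of 3.90 against 0.00. The contrast was fitted in these 3 lineages only.

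The states were not spread alike over the clusters of a lineage. Of the cycling neutrophil-lineage cells, 1363 of 1541 were in the cluster led by *Fcnb*, with 185 of 11412 low cells, and the other low cells lay in other clusters of the lineage. In the monocyte lineage the cluster with 656 of 941 cycling cells held 23 of 2056 low cells, and in B-lineage precursors that with 347 of 527 cycling cells held 3 of 460. The contrast was therefore also fitted within 1 cluster of each lineage, the one in which the rarer state had the most cells, a choice made after the data were seen. There 22 of 30 members tested were higher in the neutrophil lineage, 5 of 8 in the monocyte lineage and 3 of 3 in B-lineage precursors. Of all genes tested, 498 of 6019, 785 of 4133 and 193 of 1450 were higher in the same order. The medians of the members were 1.49, 2.45 and 4.43 on the log2 scale. *Hist1h2ap* kept its call in all 3 lineages, with log2 fold changes of 4.43 in the B, 5.51 in the monocyte and 2.11 in the neutrophil lineage.

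Among the H2A genes, *Hist1h2ap* had 0.232, 1.92, 0.325, 0.354 and 0 UMIs per 10000 in low B-lineage precursors of days 0, 3, 6, 9 and 12 and 14.3, 10.5, 33.0, 22.5 and 10.3 in cycling ones. Within the monocyte lineage *Hist1h2ap* went from 0.162, 0.265, 0.294, 0.304 and 0.196 to 6.79, 7.63, 12.1, 11.4 and 8.72. For the neutrophil lineage it went from 0.137, 0.179, 0.183, 0.304 and 0.111 to 3.94, 6.74, 8.11, 9.82 and 4.50. In each lineage all cycling libraries lay above all low libraries. The log2 fold change was 5.04 ± 0.34 (SE, n = 5, edgeR adjusted p 6.0e-12) in B-lineage precursors, 5.19 ± 0.07 (edgeR adjusted p 2.86e-38) in the monocyte lineage and 4.88 ± 0.07 (edgeR adjusted p 4.89e-32) in the neutrophil lineage.

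*Hist1h2ae*, which stands head to head with *Hist1h2bg* at a distance of 176 bases, changed by a like amount. Its level was 0.166, 0.312, 0.0886, 0.221 and 0 in low and 7.44, 1.95, 5.01, 4.70 and 6.12 in cycling B-lineage precursors. For the monocyte lineage *Hist1h2ae* went from 0.130, 0.0462, 0.0560, 0.110 and 0.0749 to 5.54, 1.20, 1.75, 1.67 and 6.06. Its log2 fold changes were 4.84 ± 0.28, 5.12 ± 0.13 and 5.14 ± 0.08 in the B, monocyte and neutrophil lineages. Other H2A genes were also higher in cycling cells, among them *Hist1h2ab* with 5.07 in the monocyte and 4.58 in the neutrophil lineage, *Hist1h2ak* with 4.13 and 4.49 and *Hist1h2ac* with 3.85 and 3.79.

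*Hist2h2aa1* and *Hist2h2ac*, H2A genes of chromosome 3, had smaller changes. *Hist2h2aa1* was higher by 2.005 ± 0.37 on the log2 scale in B-lineage precursors and by 2.19 ± 0.18 in the monocyte lineage, and by 0.60 ± 0.16 in the neutrophil lineage, a call lost with DESeq2 (0.45), without the library block (0.66) and without the library of day 12 (0.36). *Hist2h2aa1* had 0.129, 0.128, 0.120, 0.174 and 0.135 UMIs per 10000 in low and 0.415, 0.137, 0.134, 0.214 and 0.400 in cycling cells there, so most of the difference lay at days 0 and 12. Within the *Fcnb* cluster its log2 fold change was 1.19 (edgeR adjusted p 0.00925). *Hist2h2ac* was higher by 2.77 in the monocyte and by 1.53 in the neutrophil lineage, and within the *Fcnb* cluster it had 0.97 and did not pass the test (edgeR adjusted p 0.0725).

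*Hist3h2a*, the H2A gene of chromosome 11, went the other way over all low and cycling cells of B-lineage precursors and the monocyte lineage. In low B-lineage precursors it had 1.23, 0.884, 1.54, 0.664 and 0.855 UMIs per 10000 and in cycling ones 0.756, 0.383, 0.797, 0.438 and 0.718. In the monocyte lineage *Hist3h2a* had 0.492, 0.521, 0.637, 0.433 and 0.536 in low and 0.237, 0.261, 0.291, 0.241 and 0.208 in cycling cells, and these values did not overlap. It fell by 0.80 ± 0.19 on the log2 scale (SE, edgeR adjusted p 0.00115) and by 1.12 ± 0.11 (edgeR adjusted p 8.7e-12). In the neutrophil lineage *Hist3h2a* had 0.0629 to 0.107 in low and 0.0806 to 0.101 in cycling cells, and a log2 fold change of −0.10 ± 0.15 (edgeR adjusted p 0.575). The call in B-lineage precursors was lost with no filter on low counts and on thinned counts, where the values were −0.50 and −0.49. In the B-lineage cluster with the most cells of the rarer state, low cells of days 0, 3, 6 and 9 had 0.519, 0.635, 0.604 and 0.444. Its cycling cells had 0.550, 0.323, 0.264 and 0.808, with no common direction. In the monocyte cluster chosen alike, low cells had 0.403 to 0.641 and cycling cells 0.282 to 0.345. Low cells of the *Fcnb* cluster had 0.0277 to 0.0824, on 1 to 3 UMIs per library, and its cycling cells 0.0815 to 0.106. The reads of *Hist3h2a* and the overlapping *Trim17* could not be told apart here.

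Of the H2B genes, *Hist1h2bc* gave a different answer in each lineage. In low cells of the neutrophil lineage it had 0.789, 0.732, 0.780, 0.553 and 0.430 UMIs per 10000 and in cycling cells 0.482, 0.304, 0.252, 0.291 and 0.355, a log2 fold change of −1.25 ± 0.11 (SE, edgeR adjusted p 5.96e-12). In B-lineage precursors *Hist1h2bc* went from 0.597, 0.260, 0.207, 0.354 and 0.285 to 1.53, 0.445, 0.667, 0.565 and 0.887, a change of 1.25 ± 0.25 (edgeR adjusted p 0.000149). Within the monocyte lineage the low cells had 0.353 to 0.427 and the cycling cells 0.298 to 0.561, and the change of 0.03 ± 0.11 did not pass the test (edgeR adjusted p 0.82). Cycling was thus higher in each of 5 libraries in B-lineage precursors and lower in each of 5 in the neutrophil lineage. The low B-lineage values rest on 18 UMIs at day 0 and on fewer than 10 in each other library. Low and cycling B-lineage precursors also lay mostly in different clusters. In the B-lineage cluster with the most cells of the rarer state, low cells of days 0, 3, 6 and 9 had 0.649, 0.272, 0.201 and 0.111, on 1 to 10 UMIs. Cycling cells of that cluster had 1.37, 0.342, 0.879 and 0.551. The lower call in the neutrophil lineage compares cells of different clusters and was lost within 1 cluster. Within the *Fcnb* cluster *Hist1h2bc* had 0.365, 0.415, 0.247, 0.257 and 0.192 in low and 0.477, 0.288, 0.234, 0.277 and 0.363 in cycling cells from day 0 to day 12, with no common direction and a log2 fold change of −0.031 (edgeR adjusted p 0.955). By cluster, over all cells of each, its level was 0.323 in the *Fcnb* cluster, 0.166 in that led by *Ltf* and 2.86 in that led by *Ifitm1*. The annotated *Hist1h2bc* transcript has 2 exons and no stem-loop was found in it.

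The difference of the change between lineages was itself tested, as an edgeR interaction added after the data were seen. For *Hist1h2bc* the change was larger in B-lineage precursors than in the neutrophil lineage by 2.96 ± 0.27 on the log2 scale (SE, edgeR adjusted p 5.64e-15), larger in the monocyte than in the neutrophil lineage by 1.27 ± 0.18 (edgeR adjusted p 1.34e-07) and larger in B-lineage precursors than in the monocyte lineage by 1.496 ± 0.27 (edgeR adjusted p 1.19e-05). These differences rest on the same sums over clusters, and the interaction was not tested within 1 cluster. Over the members tested, 6 of 56 differed between the B and neutrophil lineages, where 21.5% of all genes did, 14 of 47 between the monocyte and neutrophil lineages (43.1% of all genes) and 3 of 49 between the B and monocyte lineages (16.2% of all genes). These shares of members lie below those of all genes.

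The other H2B genes tested in the monocyte and neutrophil lineages were higher in cycling cells. *Hist1h2bj* rose by 3.66 in the monocyte and 3.75 in the neutrophil lineage and *Hist1h2be* by 0.72 in the neutrophil lineage. The largest change in the monocyte lineage was that of *Hist1h2bn*, with 5.61 ± 0.46 from 2 UMIs in low and 110 in cycling cells, and *Hist1h2bk* changed by 4.92. Within the neutrophil lineage *Hist1h2bn* changed by 5.14 ± 0.25, from 14 to 249 UMIs.

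Pairs of an H2A and an H2B gene that start head to head on opposite strands were captured unequally. The 12 such pairs have their starts 176 to 306 bases apart. Beside the 53491 UMIs of *Hist1h2ap* its partner *Hist1h2br* had 3, and *Hist1h2ae* with 14187 stood beside *Hist1h2bg* with 812. Of the stretches of 50 bases of *Hist1h2br*, 93.2% were shared with *Hist1h2bq*, which had 10 UMIs, so its reads may have been dropped as ambiguous. *Hist1h2bc* had 3460 UMIs in low and 1920 in cycling cells, and its partner *Hist1h2ac*, 251 bases away, had 78 and 927. The region between these partners thus lies before a gene captured mostly in cycling cells and one captured in both states.

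The H3 genes gave few UMIs. For the neutrophil lineage 9 of 12 were tested and all 9 were higher in cycling cells, where 37.0% of all genes were, with a median log2 fold change of 4.09. The largest were *Hist1h3i* with 5.29 ± 0.27, from 11 to 219 UMIs, and *Hist1h3b* with 5.09 ± 0.29, from 9 to 160. *Hist1h3e*, the H3 gene with the most UMIs, changed by 3.00 in the monocyte and 4.11 in the neutrophil lineage.

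Among the H4 genes, *Hist1h4i* at chr13:22040636-22041362 had the most UMIs, with UMIs in both low and cycling cells. It went from 0.199, 0.260, 0.207, 0.133 and 0.285 per 10000 in low to 1.67, 0.691, 1.64, 1.58 and 1.44 in cycling B-lineage precursors. In the neutrophil lineage *Hist1h4i* went from 0.276, 0.244, 0.309, 0.270 and 0.210 to 0.713, 0.597, 0.409, 0.629 and 0.492. Free RNA held 0.749, 0.721, 0.750, 0.745 and 0.601 of it from day 0 to day 12, above these low values of both lineages in each library. The cycling values of the neutrophil lineage also lay below free RNA in each library, so neither state is separated from background there. The log2 fold change of *Hist1h4i* was 2.85 ± 0.27 in the B, 1.67 ± 0.10 in the monocyte and 0.82 ± 0.10 in the neutrophil lineage. The B and neutrophil values differed by 2.51 ± 0.31 (SE, edgeR adjusted p 2.57e-10). *Hist1h4d* changed by 4.64 ± 0.50, 3.10 ± 0.18 and 3.65 ± 0.15 in the same order, and in low B-lineage precursors it had 3 UMIs, all of day 0. *Hist1h4h* changed by 1.80 in the monocyte and 2.67 in the neutrophil lineage.

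The linker histone genes separated into those that followed the cell cycle and *Hist1h1c*. *Hist1h1b* had 0.00576 to 0.0417 UMIs per 10000 in low and 0.533 to 1.06 in cycling cells of the monocyte lineage, and changed by 3.57 ± 0.42, 4.90 ± 0.18 and 4.64 ± 0.12 in the B, monocyte and neutrophil lineages. *Hist1h1e* changed by 1.95 ± 0.25, 2.57 ± 0.12 and 2.98 ± 0.11. *Hist1h1a* changed by 3.98 and 3.77 and *Hist1h1d* by 2.62 and 4.34 in the monocyte and neutrophil lineages.

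The change of *Hist1h1c* was small over all low cells and moved with the clusters compared. Within the neutrophil lineage it had 1.03, 0.860, 0.828, 0.828 and 0.749 UMIs per 10000 in low and 1.73, 1.12, 0.910, 1.19 and 0.898 in cycling cells, with a log2 fold change of 0.13 ± 0.07 (edgeR adjusted p 0.107), which was 0.43 and passed the test with library sizes only. Within the *Fcnb* cluster *Hist1h1c* had 0.972, 0.692, 0.247, 0.886 and 0.604 in low and 1.75, 1.15, 0.908, 1.21 and 0.910 in cycling cells, higher in 5 of 5 libraries, with a log2 fold change of 0.58 (edgeR adjusted p 0.00203). By cluster its level was 1.10 in the *Fcnb*, 0.383 in the *Ltf* and 2.20 in the *Ifitm1* cluster. For the monocyte lineage *Hist1h1c* had 0.332 to 0.524 in low and 0.331 to 0.740 in cycling cells, and a change of 0.24 ± 0.10 that passed the test by little (edgeR adjusted p 0.0456) and was lost with DESeq2, without the block and without the library of day 0 (0.15), day 3 (0.19) or day 12 (0.24), and within 1 cluster it turned to −0.26 (edgeR adjusted p 0.271). In B-lineage precursors *Hist1h1c* had 0.364 to 1.56 in low and 0.416 to 1.25 in cycling cells, with −0.27 ± 0.20 (edgeR adjusted p 0.248). Free RNA held 1.06 UMIs of *Hist1h1c* per 10000, 0.731 of *Hist1h2bc* and 0.703 of *Hist1h4i*, the 3 highest of the members, against 0.587 of *Hist1h2ap* and 0.406 of *Hist1h2ae*.

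**Figure D3:**
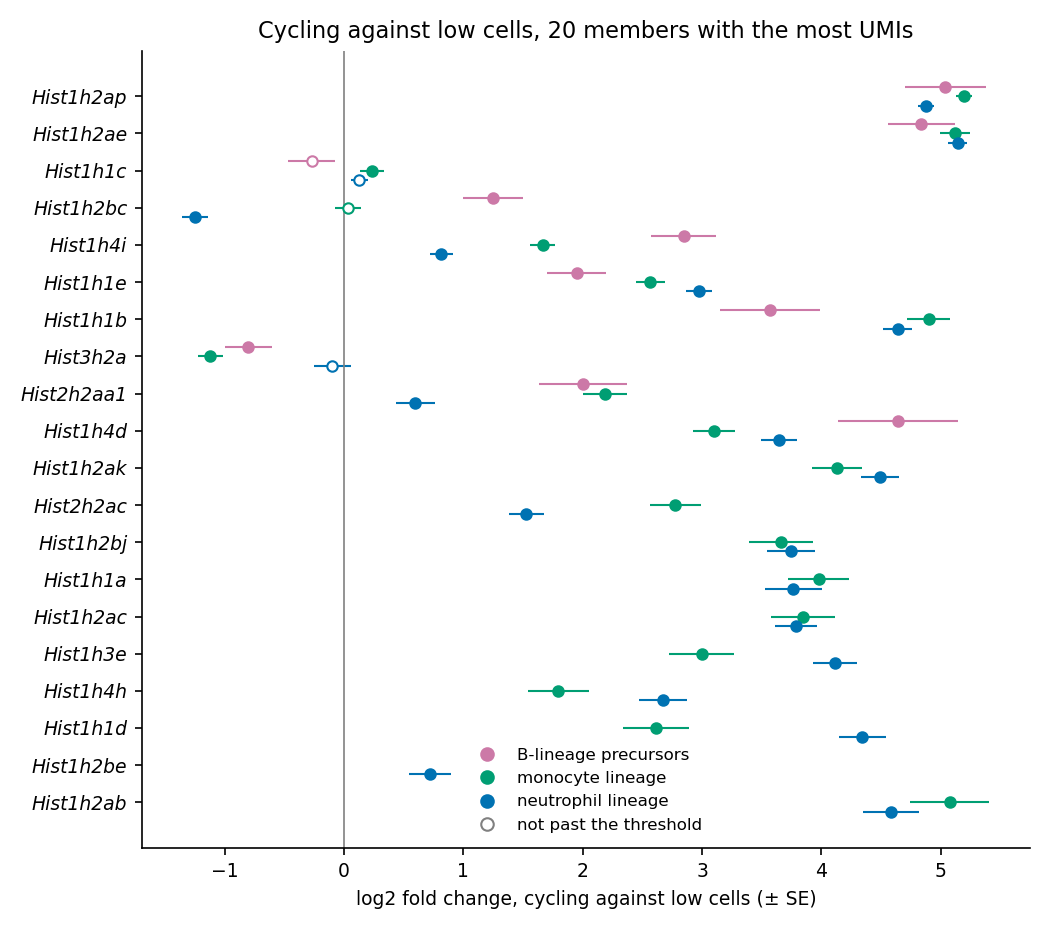
Log2 fold change of cycling against low cells, with SE, for the 20 members with the most UMIs in 3 lineages, where open points did not pass an edgeR adjusted p of 0.05. *Hist1h2ap* and *Hist1h2ae* lie near 5 in all 3 lineages, while *Hist1h2bc* lies at 1.25 in B-lineage precursors, at 0.03 in the monocyte and at −1.25 in the neutrophil lineage, where the value within the *Fcnb* cluster alone was −0.031.

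The stretches before 3 members are given because these members behaved differently, *Hist1h1c* with a small change over all low cells, *Hist1h2ac*, whose stretch is shared with *Hist1h2bc*, and *Hist1h4i*. Each is the 250 bases before the start in RefSeq on GRCm38.p6, 5′ to 3′ on the strand of the gene, at chr13:23738557-23738806 for *Hist1h1c* (plus strand), chr13:23683960-23684209 for *Hist1h2ac* (minus strand) and chr13:22041363-22041612 for *Hist1h4i* (minus strand). The capitals mark matches on either strand to CCAAT, the box bound by NF-Y, TATAAA, the TATA box, ATTTGCAT, the octamer bound by POU factors, and AAACACA, an element described before H1 genes.
*Hist1h1c*: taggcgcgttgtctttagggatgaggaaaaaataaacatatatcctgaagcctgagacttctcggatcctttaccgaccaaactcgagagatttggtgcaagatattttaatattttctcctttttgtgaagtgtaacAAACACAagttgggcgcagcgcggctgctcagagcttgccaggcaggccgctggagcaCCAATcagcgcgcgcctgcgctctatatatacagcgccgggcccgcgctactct
*Hist1h2ac*: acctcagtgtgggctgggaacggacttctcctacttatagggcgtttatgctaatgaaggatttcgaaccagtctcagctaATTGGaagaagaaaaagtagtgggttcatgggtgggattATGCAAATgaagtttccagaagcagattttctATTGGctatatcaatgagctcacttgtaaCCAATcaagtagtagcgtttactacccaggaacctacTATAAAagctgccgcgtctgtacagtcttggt
*Hist1h4i*: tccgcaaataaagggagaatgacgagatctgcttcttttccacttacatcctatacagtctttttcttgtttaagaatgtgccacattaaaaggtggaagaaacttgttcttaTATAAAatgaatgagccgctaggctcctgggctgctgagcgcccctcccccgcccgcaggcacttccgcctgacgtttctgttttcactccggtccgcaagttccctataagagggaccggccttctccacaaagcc
The stretch of *Hist1h1c* has exact matches to the NF-Y box and the H1 element, and that of *Hist1h2ac* to the NF-Y box, the TATA box and the octamer. That of *Hist1h4i* has an exact match to the TATA box alone. This match lies near the middle of the stretch, while that of *Hist1h2ac* lies close to the start of the gene. Close to their starts, *Hist1h1c* and *Hist1h4i* both have letters similar to the TATA box that are not exact matches and are not marked. The marks therefore do not show which of these genes has a working TATA box.

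Over windows from 250 bases before to 50 after the start, 61 members were matched in RefSeq. CCAAT was found in 85.2% of these and in 37.9% of all 27025 windows. All matched H1, H2A, H2B and H3 genes had it (100%), and 25% of the H4 genes. TATAAA was in 57.4% against 14.2% of all windows and the octamer in 21.3% against 1.75%, in 7 H2A and 6 H2B genes and in no other family. AAACACA was in 5 of 6 H1 genes and in 14.8% of the members, against 7.14% of all windows. Such matches describe letters and are not evidence of binding.

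Within cycling cells, those rich in S phase transcripts were set against those rich in G2/M transcripts, with at least 2 times as many UMIs of one list as of the other in the thinned cell. In B-lineage precursors of days 0, 3, 6 and 9 the summed histone level was 42.0, 14.2, 39.8 and 33.5 per 10000 in S-rich and 54.8, 24.1, 62.5 and 49.5 in G2/M-rich cells, higher in G2/M-rich cells of each library. In the monocyte lineage it was 17.3, 12.7, 13.9, 16.2 and 18.7 against 22.9, 13.3, 17.4, 19.6 and 25.5 from day 0 to day 12. For the neutrophil lineage the values were 16.8, 15.01, 15.3, 16.3 and 14.3 against 18.9, 14.0, 13.4, 18.8 and 14.8, with no common direction.

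By gene, 22 members were tested in B-lineage precursors, 0 were higher in S-rich cells (6.14% of all genes) and 9 were lower (5.72% of all genes), with a median log2 fold change of −0.76 against −0.01 over all genes. Within the monocyte lineage 1 of 15 was higher (15.5%) and 5 were lower (12.0%), with a median of −0.32. In the neutrophil lineage 1 of 31 was higher (8.48%) and 1 lower (5.96%), with a median of −0.14. The 9 lower calls in B-lineage precursors depend on the processing. They were 4 to 5 when the library of any 1 day was left out, 5 with cycling cells taken from 8 proliferation UMIs, 3 by DESeq2, 1 without the library block and 1 at equal depth, and the 5 of the monocyte lineage were 1, 3, 1 and 0 under the last 4 of these. At equal depth only 2 members were tested in each of these lineages, in place of 22 and 15. Within the cluster with the most cycling cells 5 of 14 members were lower in B-lineage precursors and 6 of 12 in the monocyte lineage. Of all genes tested there, 190 of 2261 and 597 of 4494 were lower.

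*Hist3h2a* had the largest difference in B-lineage precursors and the monocyte lineage, while in the neutrophil lineage it had 0.35 ± 0.43 (edgeR adjusted p 0.686). In B-lineage precursors of days 0, 3, 6 and 9 it had 0.499, 0.272, 0.138 and 0.107 UMIs per 10000 in S-rich and 1.31, 0.538, 1.43 and 0.701 in G2/M-rich cells, a log2 fold change of −1.74 ± 0.30 (SE, n = 4 libraries, edgeR adjusted p 9.53e-05). For the monocyte lineage *Hist3h2a* had 0.254, 0.133, 0.133, 0.144 and 0.0354 against 0.261, 0.315, 0.335, 0.281 and 0.281, and fell by 1.05 ± 0.28 (edgeR adjusted p 0.00433). The S-rich cells of a library held 140415 to 588250 UMIs of all genes in B-lineage precursors and 275858 to 527764 in the monocyte lineage. Their levels thus rest on few UMIs of *Hist3h2a* per library. The G2/M-rich value was the higher in all 9 library pairs, the call in B-lineage precursors kept its side of the threshold in all alternatives that tested it, which thinned counts did not, and that in the monocyte lineage was lost with DESeq2 (−1.07). In B-lineage precursors *Hist1h4d* fell by 1.53 ± 0.27, *Hist1h3e* by 1.40 ± 0.42, *Hist1h4h* by 1.24 ± 0.42 and *Hist1h1c* by 1.13 ± 0.26 on the log2 scale. Leaving out 1 library ended the call of *Hist1h3e* (−1.45 without day 6), *Hist1h4h* (−1.22 without day 3, −1.02 without day 6) and *Hist1h1c* (−0.86 without day 0), and not that of *Hist1h4d*.

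The most captured members differed less between the phases. In B-lineage precursors and the monocyte lineage, *Hist1h2ap* was lower in S-rich cells by −0.43 ± 0.10 and −0.21 ± 0.06 and *Hist1h2ae* by −0.46 ± 0.14 and −0.49 ± 0.09. In B-lineage precursors the calls were lost without day 3 (−0.34 and −0.32) or day 9 (−0.35 and −0.39), that of *Hist1h2ae* also without day 6 (−0.43), and in the monocyte lineage that of *Hist1h2ap* was lost without day 0 (−0.17) or day 6 (−0.19). In the monocyte lineage the direction turned with cycling cells taken from 8 proliferation UMIs, where *Hist1h2ap* had 0.20 (edgeR adjusted p 0.042) and *Hist1h2ae* 0.02 (edgeR adjusted p 0.914). Of the linker histone genes, *Hist1h1e* fell by 1.08 ± 0.21 in B-lineage precursors and by 0.72 ± 0.18 in the monocyte lineage.

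In the main fit 1 of 15 members was higher in S-rich cells of the monocyte and 1 of 31 of the neutrophil lineage. Both, *Hist1h1a* and *Hist1h1b*, are linker histone genes, and these shares lie below the 15.5% and 8.48% of all genes. With cycling cells taken from 8 proliferation UMIs, 4 of 13 members were higher in the monocyte lineage, where 612 of 4462 genes tested were. They were *Hist1h1a* by 1.29, *Hist1h1b* by 0.53, *Hist1h2ap* by 0.20 and the H4 gene *Hist1h4i* by 0.62, and *Hist3h2a* was lower. *Hist1h1a* had 0.399, 0.152, 0.152, 0.185 and 0.283 UMIs per 10000 in S-rich and 0.261, 0.0591, 0.0632, 0.120 and 0.242 in G2/M-rich cells of the monocyte lineage, higher in 5 of 5 libraries, with a log2 fold change of 0.77 ± 0.28 (edgeR adjusted p 0.0388). This call was lost with DESeq2 (0.82), with library sizes only (0.72) and without the library of day 0 (0.81), 3 (0.69), 6 (0.67) or 9 (0.80). *Hist1h1b* was higher by 0.44 ± 0.16 in the neutrophil lineage (edgeR adjusted p 0.0446), where *Hist1h1c* fell by 0.42 ± 0.13 (edgeR adjusted p 0.0154). Both of these calls were lost with DESeq2 (0.45 and −0.42), that of *Hist1h1b* also without day 0 (0.45), 3 (0.44), 6 (0.32) or 12 (0.49), and within the *Fcnb* cluster (0.33), and that of *Hist1h1c* without day 6 (−0.36) or 9 (−0.33). *Hist1h1a* had 1.01 ± 0.40 there and did not pass the test (edgeR adjusted p 0.0755).

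**Figure D4:**
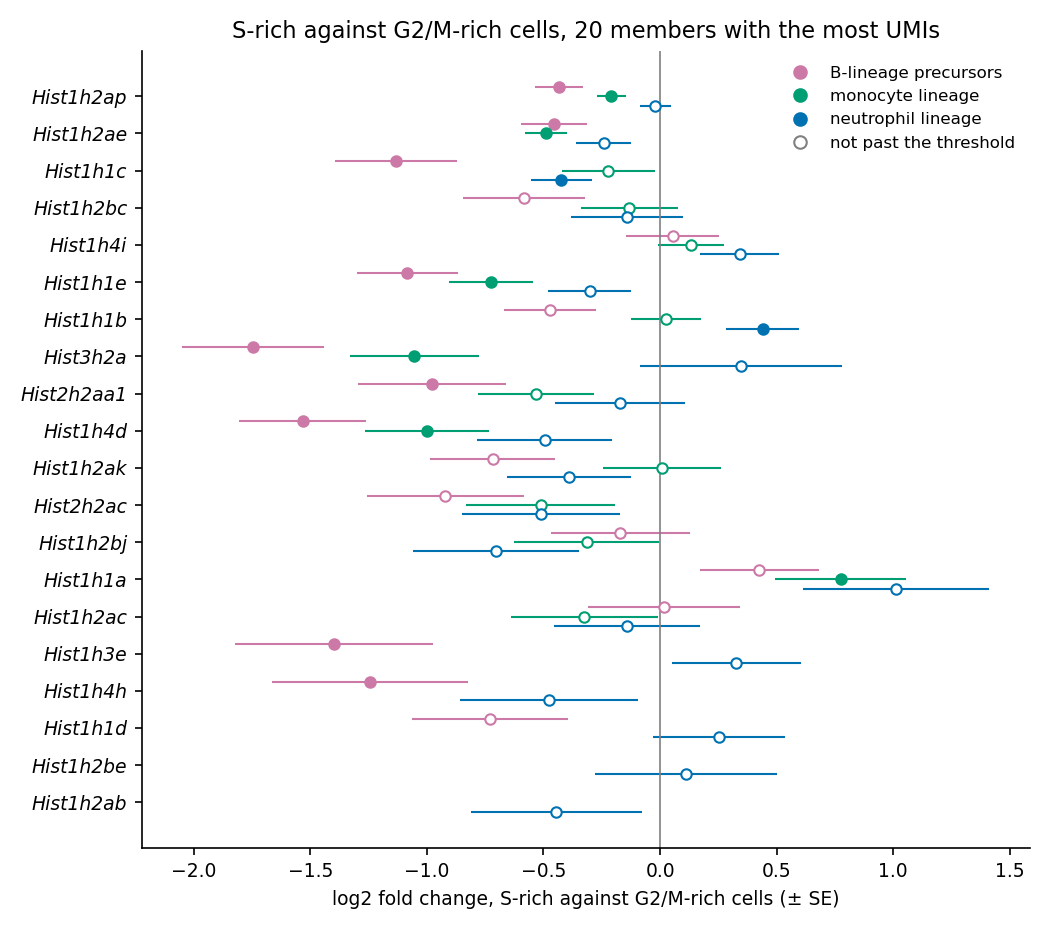
Log2 fold change of S-rich against G2/M-rich cycling cells, with SE, for members among the 20 with the most UMIs in 3 lineages, where open points did not pass an edgeR adjusted p of 0.05. Most points lie at or left of 0, with *Hist3h2a* at −1.74 in B-lineage precursors and *Hist1h1a* at 0.77 in the monocyte lineage.

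Genes of the same pathway that are not members gave a reference for these contrasts. The replication-independent histone variants, most of which are polyadenylated and can be made outside S phase, were 12 listed genes. *H2afx* mRNA is also made with a stem-loop. In cycling against low cells 6 of 9 tested were higher and 2 lower in B-lineage precursors, 7 and 0 of 9 in the monocyte lineage and 6 and 2 of 9 in the neutrophil lineage, where 26.5%, 25.9% and 37.0% of all genes were higher, with median log2 fold changes of 0.71, 0.79 and 1.52. *H2afx*, the variant marked at DNA breaks, changed by 3.24, 3.93 and 3.52 in the B, monocyte and neutrophil lineages, the centromeric H3 variant *Cenpa* by 1.97, 3.03 and 2.55 and *H2afz* by 2.32, 1.14 and 1.52. In S-rich against G2/M-rich cells, variants were lower for 4 of 8, 7 of 9 and 4 of 9 tested and higher for 0, 0 and 1, where 5.72%, 12.0% and 5.96% of all genes were lower. *Cenpa* changed by −2.36, −3.00 and −2.40 and *H2afx* by −1.81, −1.67 and −0.92.

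The list of factors that process histone mRNA or activate its genes held 16 genes. In cycling against low cells 5 of 8 were higher and 0 lower in B-lineage precursors, 10 and 1 of 15 in the monocyte lineage and 11 and 1 of 15 in the neutrophil lineage, beside the same 26.5%, 25.9% and 37.0% of all genes. *Slbp*, the stem-loop binding protein, changed by 1.74 ± 0.18, 1.76 ± 0.06 and 1.73 ± 0.06. Within the neutrophil lineage the exonuclease gene *Eri1* changed by 2.51 ± 0.11 and *Npat*, the coactivator of histone transcription, by 2.17 ± 0.26. In S-rich against G2/M-rich cells 2 of 10, 3 of 14 and 2 of 14 were higher and none lower, where 6.14%, 15.5% and 8.48% of all genes were higher, and *Slbp* was higher by 1.07 ± 0.14, 1.28 ± 0.09 and 1.13 ± 0.09.

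Histone chaperones, which carry new histones to DNA, were 16 listed genes and were mostly higher in cycling cells, 10 of 12 in the B, 14 of 16 in the monocyte and 15 of 16 in the neutrophil lineage, with 1, 1 and 0 lower, beside 26.5%, 25.9% and 37.0% of all genes higher. *Asf1b* changed by 3.76, 4.37 and 3.51. In S-rich cells 8 of 14, 14 of 15 and 11 of 16 chaperone genes were higher and none was lower, beside 6.14%, 15.5% and 8.48% of all genes higher. *Chaf1b*, a subunit of the chromatin assembly factor CAF-1, changed by 1.79 ± 0.32, 3.08 ± 0.25 and 3.43 ± 0.41, *Hat1* by 1.53, 1.39 and 1.27 and *Nasp* by 1.22, 1.37 and 1.42.

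Differences between days cannot be told apart from differences between mice or libraries, and no test was made. In cycling cells, members with at least 50 UMIs over day 0 and the later day were counted as lower when their level was at least 1.5-fold lower than at day 0. For the neutrophil lineage these were 25 of 34 members at day 3, 29 of 32 at day 6, 23 of 36 at day 9 and 8 of 39 at day 12, where 4.08%, 3.36%, 3.96% and 3.25% of all genes were that much lower. The median fold of the members was 0.5996, 0.467, 0.604 and 0.784 and that of all genes 1.17, 1.22, 1.20 and 1.07. All 4 comparisons share the day 0 library.

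Within the monocyte lineage 14 of 19, 16 of 20, 14 of 22 and 1 of 25 members were lower, where 4.56%, 4.26%, 5.66% and 3.8% of all genes were, with median folds of 0.427, 0.392, 0.568 and 1.03. In granulocyte-monocyte progenitor-like cells these were 6 of 19, 14 of 18, 13 of 26 and 2 of 26, where 3.49%, 4.18%, 4.12% and 3.56% of all genes were, with median folds of 0.705, 0.542, 0.672 and 1.04. In B-lineage precursors 29 of 30, 18 of 28, 20 of 27 and 7 of 17 members were lower, where 21.5%, 8.95%, 12.9% and 11.6% of all genes were, with median folds of 0.278, 0.590, 0.579 and 0.739. Without the group of cells found at day 3 alone, the sum over days in B-lineage precursors went from 74 of 102 to 59 of 97 pairs of a member and a day.

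*Hist1h2ap* went against most of the other members. In cycling cells of the neutrophil lineage *Hist1h2ap* was 1.71, 2.06, 2.49 and 1.14 times its day 0 level at days 3, 6, 9 and 12, and *Hist1h2ae* 0.32, 0.31, 0.43 and 0.88 times. The ratio of *Hist1h2ap* to *Hist1h2ae* in these cells was 1.24, 6.66, 8.39, 7.23 and 1.62 from day 0 to day 12. Both genes encode H2A, and the ratio was low at days 0 and 12 and high at days 3, 6 and 9.

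The same order was seen in each lineage. The ratio was 1.22, 6.38, 6.91, 6.85 and 1.44 in the monocyte lineage, 1.44, 6.77, 8.57, 7.57 and 1.55 in granulocyte-monocyte progenitor-like cells and 1.92, 5.37, 6.58, 4.79 and 1.69 in B-lineage precursors. In free RNA of the same libraries the ratio of *Hist1h2ap* to *Hist1h2ae* was 0.679, 2.97, 4.96, 5.88 and 0.895. The values move with the library in every kind of barcode, including free RNA, and the part of library preparation or sequencing in them was not tested.

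**Figure D5:**
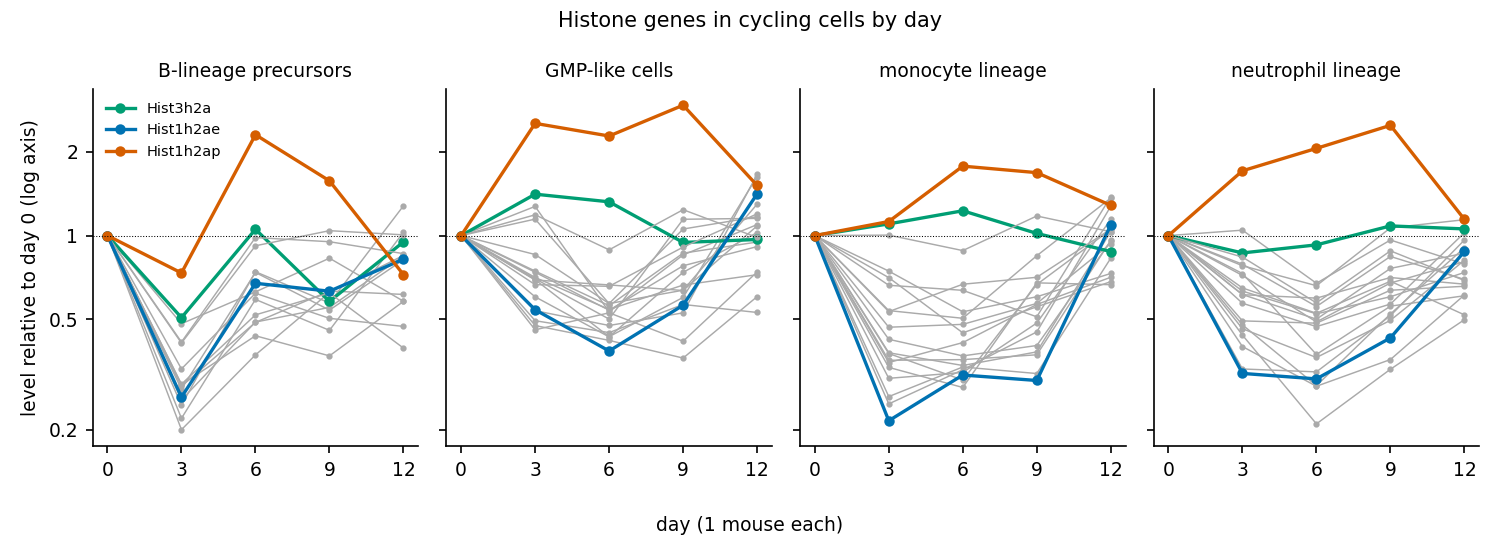
Level of members in cycling cells relative to day 0, on a log axis, by day in 4 lineages, for those of the 20 with the most UMIs that have at least 10 UMIs at every day. In the neutrophil lineage *Hist1h2ap* (orange) reaches 2.49 at day 9 and *Hist1h2ae* (blue) falls to 0.31 at day 6, *Hist3h2a* is green and the other members are grey.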

How the data were processed

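Droplet-based 10x Genomics 3' libraries of 5 mouse bone marrows were analysed. The authors deposited raw UMI counts per gene and barcode made with Cell Ranger on mm10, with no filter or normalization, and the annotation release is not given in the sources used here. The members and lists were chosen with earlier results of these data known.

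Barcodes with at least 500 UMIs were kept, clustered without the members (scanpy 1.11.5, leidenalg 0.10.2, Python 3.11.15) and named from marker lists by a scheme set after names had been seen. Clusters that met no name held 3105 cells, and 4 subclusters of the B-lineage precursors led by genes of other types were set aside. Doublets were kept in the main analysis. Cells with at least 1000 UMIs were thinned to 1000 (fixed seed) to set the state by list UMIs, and genes of these lists were kept out of the calls. UMIs were summed per library and state where at least 10 cells were present in at least 3 libraries, and edgeR 4.0.16 in R 4.3.3 was used with TMM, its filter on low counts and the library as a block. The SE was computed from the fold change and the F statistic. Fold changes against day 0 used a pseudocount of 0.5 UMIs. The 5 libraries are separate mice of different days, so p-values within them measure how alike the state contrast was between mice.

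Members were named when among the 20 with the most UMIs, or among the 5 largest changes in each direction of a contrast, and list genes when among the 4 largest changes. Alternatives changed the normalization, filter, tool (DESeq2 1.42.0), mitochondrial limit, cycling limit, block, depth, doublet-scored cells, clusters and libraries. The test was checked on simulated data.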

Additional observations from a re-analysis of the deposited data

Results flagged for a closer look

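Of 29 sets of 4 or 5 library values of the cycling to low log2 ratio, 4 held 1 library far from the others by Dixon's criterion. By chance about 1 in 20 is flagged. In B-lineage precursors the ratio of all members was 1.61 at day 3 and 2.98 to 3.43 at the other days, and the group of cells found at day 3 alone is in that value. In granulocyte-monocyte progenitor-like cells *Hist1h2bc* had −2.53 at day 3 and −0.876 to −0.514 at the other days. In the neutrophil lineage *Hist1h4i* had 0.40 at day 6 against 1.22 to 1.37, and *Hist1h1e* had 4.39 at day 6 against 3.07 to 3.25.

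The cycling to low change differed between lineages for 8 members in an edgeR interaction test that was added after the data were seen. Between B-lineage precursors and the neutrophil lineage the log2 difference was 2.96 for *Hist1h2bc*, 2.51 for *Hist1h4i*, 1.90 for *Hist2h2aa1*, 1.65 for *Hist2h2ac* and −1.93 for *Hist1h3e*, with edgeR adjusted p of 5.64e-15 to 0.0181. Between the monocyte and neutrophil lineages it was 1.58 for *Hist2h2aa1*, 1.27 for *Hist1h2bc*, 1.24 for *Hist2h2ac*, 0.84 for *Hist1h4i*, 0.31 for *Hist1h2ap*, −1.03 for *Hist3h2a*, −1.11 for *Hist1h3e* and −1.72 for *Hist1h1d*, with edgeR adjusted p of 1.34e-07 to 0.0324. Between B-lineage precursors and the monocyte lineage it was 1.496 for *Hist1h2bc*, 1.47 for *Hist1h4i* and 0.57 for *Hist3h2a*, with edgeR adjusted p of 1.19e-05 to 0.0485. These are the differing members among the 20 with the most UMIs. Over all members tested, 6 of 56, 14 of 47 and 3 of 49 differed in these comparisons, below the 21.5%, 43.1% and 16.2% of all genes. The low and cycling cells of the neutrophil lineage lay mostly in different clusters, and these differences were not tested within 1 cluster.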

How the results depend on the processing

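Restricted to the cluster of each lineage with the most cycling cells, an alternative added after the data were seen, lower members between S-rich and G2/M-rich B-lineage precursors were 5 of 14 in place of 9, and higher members in cycling against low cells of the neutrophil lineage 22 of 30 in place of 43. That cluster held too few low cells in B-lineage precursors and the monocyte lineage, so a further restriction, to the cluster in which the rarer state had the most cells, was added once this was known. It is the same cluster in the neutrophil lineage (22), and gave 3 of 3 higher in place of 8 in B-lineage precursors and 5 of 8 in place of 28 in the monocyte lineage, where *Hist1h1c* reversed (−0.26). S-rich against G2/M-rich cells could not be fitted there in these 2 lineages. The sums for S-rich and G2/M-rich cells were the least stable. Calls of lower members in B-lineage precursors were 9, and 5 with cycling cells taken from 8 list UMIs, 3 with DESeq2, 1 without the library block, 1 on thinned counts and 4 to 5 on leaving out each library in turn. In the monocyte lineage they were 5, and 1, 3, 1, 0 and 4 to 5 in the same order. In the neutrophil lineage they were 1, and 0 with DESeq2, 2 with no filter, 0 without the block, 0 on thinned counts and 0 to 1 on leaving out each library, and cycling cells from 8 list UMIs were too few there to be tested. With that limit *Hist1h2ap* (0.20) and *Hist1h2ae* (0.0225) reversed in the monocyte lineage. In cycling against low cells, higher calls in B-lineage precursors were 8, and 51 with no filter, 3 on thinned counts, 15 without the day 3 group and 8 to 15 on leaving out each library, 15 being without day 3. They were 28, and 49 with no filter and 4 on thinned counts, in the monocyte lineage and 43, and 11 on thinned counts, in the neutrophil lineage. Differing members between the monocyte and neutrophil lineages were 14, and 2 on thinned counts, and between B-lineage precursors and the monocyte lineage 3, and 6 without the day 3 group and 0 on thinned counts. Cycling cells from 8 list UMIs gave 18.8 per 10000 in progenitor-like cells, and 17 of 43 and 43 of 80 lower pairs of member and day in progenitor-like cells and the neutrophil lineage. The mean over low cells of the neutrophil lineage was 3.597. Unthinned, the shares of cells with a member UMI were 60.0% and 95.4%, 79.9% and 94.5%, 69.2% and 95.5% and 52.0% and 93.4% for low and cycling cells of B-lineage precursors, progenitor-like cells, the monocyte and the neutrophil lineage.

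Over all genes, calls in cycling against low B-lineage precursors were 1906, and 2873 with no filter. Within the cluster with both states they were 381 there, 1650 in place of 4618 in the monocyte and 1010 in place of 6243 in the neutrophil lineage. On thinned counts they were 660 in B-lineage precursors, 1199 in the monocyte and 2842 in the neutrophil lineage. Calls between S-rich and G2/M-rich cells were 396 in B-lineage precursors, and 131 with DESeq2, 69 without the block, 237 without day 6, 164 without day 9 and 90 on thinned counts. They were 1598, and 835 with DESeq2 and 122 on thinned counts, in the monocyte lineage and 773, and 427 with DESeq2, 432 without the block and 67 on thinned counts, in the neutrophil lineage. With library sizes only in place of TMM, the median of all genes in cycling against low cells of the neutrophil lineage moved by 0.31 on the log2 scale and the share of higher calls from 49.9% to 66.5%. Between S-rich and G2/M-rich cells that share went from 51.8% to 34.0% in B-lineage precursors with library sizes only and to 24.6% without the block, and from 58.7% to 70.0% in the neutrophil lineage with DESeq2, to 36.9% with no filter and to 44.8% on thinned counts. Of the values of single genes, 1484 kept their side of the threshold, 88 lost the call and 11 gained it. A further 3 changed direction with a call in the main fit or the alternative. Changes of direction with no call in either fit are among the 1484. Thinned counts left 5, 7 and 15 members to test for cycling against low cells of the B, monocyte and neutrophil lineages and 2, 2 and 4 for S-rich against G2/M-rich cells.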

Other observations

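The clusters of the neutrophil lineage were not alike in their histone UMIs. The values are over all cells of a cluster and not over its low cells alone. By cluster, the summed level of the members was 1.37 per 10000 in the largest cluster (4352 cells), led by *Ltf*, *Ngp* and *Camp*, which encode proteins of secondary granules. It was 3.41 in a cluster of 2612 cells led by *Retnlg* and *Mmp8*, 5.88 in one of 1632 cells with *Cxcl2* and *Il1b* and 7.66 in one of 2539 cells with *Ifitm1* and *Il1b*. The last was 8.89, 7.58, 8.50, 7.15 and 5.85 from day 0 to day 12, and the first 1.93, 1.24, 1.09, 1.33 and 1.29. The cluster led by *Fcnb* (2155 cells, 63.2% cycling) had 15.1.

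In the *Ifitm1* cluster *Hist1h2bc* had 2.86, *Hist1h1c* 2.20, *Hist1h4i* 0.746 and *Hist1h2ap* 0.262 UMIs per 10000. In the *Ltf* cluster these were 0.166, 0.383, 0.137 and 0.0878, and in the *Fcnb* cluster 0.323, 1.10, 0.544 and 5.64. Free RNA held 0.731 of *Hist1h2bc*, 1.06 of *Hist1h1c*, 0.703 of *Hist1h4i* and 0.587 of *Hist1h2ap*, so in the *Ifitm1* cluster *Hist1h2bc*, *Hist1h1c* and, by little, *Hist1h4i* lay above free RNA. The median UMI count was 1855 per cell in the *Ifitm1* cluster, 4762.5 in the *Ltf* cluster and 10728 in the *Fcnb* cluster, and the part of depth and of free RNA in these values was not tested.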
